A study of Mus musculus with 12 samples.

Results

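Genes that TNFa alone lowered and BMP4 alone raised were followed in MC3T3-E1 cells, an established mouse line of bone-forming precursor cells from calvaria, to see where their transcript levels lay when both factors were given. A gene was taken where its mean log2 level over the 12 libraries was at least 6, its mean with TNFa was at least 0.2 below untreated, its mean with BMP4 was at least 0.2 above untreated, and both signs held within each of the 2 batches. Of the 25124 genes in the deposited table, 130 met these values. Of these, 12 were left out by name (Id1, Id3, Smad6, Atoh8, Pth1r, Rflnb and genes whose symbols start with Wnt, Slc or Trim), which left 118 genes. The levels are log2 values as deposited, and every difference below is on that log2 scale.

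The 12 polyA RNA-seq libraries fall into 4 groups of 3: TNFa+BMP4, TNFa, BMP4 and untreated. All cells were first held in 2.5% serum for 30 min. TNFa at 10 ng/mL was then added or not for 30 min, and BMP4 at 10 ng/mL was added or not for a further 3 h. The sample characteristics instead give 3 h for each factor, which leaves the TNFa time uncertain. The label p65 stands in the titles of the TNFa group and is not explained. Replicate 1 of each group is batch 1 and replicates 2 and 3 are batch 2, as the labels number them. Whether replicates were separate cultures is not stated, and p-values here measure no more than the spread among these libraries. The series title names Smad4 and p65 and a protection by BMP against inflammatory cell death.

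Libraries held 13.7 to 15.5 M tags, except TNFa+BMP4 replicate 2 with 20.6 M (M stands for 1e+06). Of 9 osteoblast-lineage markers, 6 had a mean log2 level of at least 4, among them Runx2 at 10.3, Col1a1 at 17.3 and Sparc at 16.3, while Alpl averaged 0.354 and was close to absent. The defining genes of leukocytes (Ptprc), adipocytes (Adipoq), endothelium (Cdh5) and muscle (Myod1) had mean log2 levels of 0 or below, and 1 of 5, 0 of 4, 1 of 3 and 0 of 4 genes on those lists reached 4. Runx2 averaged 10.1 with TNFa+BMP4, 9.92 with TNFa, 10.7 with BMP4 and 10.5 in untreated cells, and was called lower than untreated with TNFa+BMP4 and with TNFa. The endothelial marker Pecam1 averaged 5.21 with TNFa+BMP4, 4.76 with TNFa, 5.02 with BMP4 and 4.83 in untreated cells and was called higher with TNFa+BMP4. The summed level of the 3 endothelial markers was 35.81 to 41.94 with TNFa+BMP4, 25.87 to 33.58 with TNFa, 30.14 to 37.99 with BMP4 and 25.94 to 34.23 in untreated cells, on the linear scale. The part of these markers in the results was not tested. Of 4 cartilage markers, Col2a1 averaged 15, Comp 4.01, Col10a1 −0.755 and Acan was at 0.

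TNFa is an inflammatory cytokine that signals through its receptors to NF-kB, of which p65 is a subunit, and it is known to restrain osteoblast differentiation. BMP4 binds type I and type II receptor kinases that phosphorylate Smad1, Smad5 and Smad9. These join Smad4 and act at target genes, many of which encode inhibitors of the same pathway and transcription factors of the bone and cartilage lineages.

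With both factors, genes were called in both directions, as they were among all genes tested. Against untreated cells, 28 of the 118 genes (23.7%) were higher with TNFa+BMP4, 26 (22%) were lower and 64 were not called (limma adjusted p under 0.05). Over all 11765 genes tested, 16.8% were called higher and 14.4% lower in the same comparison, and 18% and 14.6% of the genes with a mean level of at least 6. The median difference of the 118 genes from untreated was −0.01, with values between −0.78 and 1.11, and that of all genes tested was 0.000195. In RNA from bulk cultures, fewer cells of a type and less RNA per cell cannot be told apart, here or in any result below. The untreated libraries also entered the choice of the genes, so this comparison is not independent of it. If the effects of the factors add, the sign of this difference also follows from which single effect is the larger in size.

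The genes were chosen by their TNFa and BMP4 differences from untreated and their mean level, and those values are a description and carry no test. The TNFa difference from untreated lay between −0.96 and −0.20 (median −0.34), and the BMP4 difference between 0.20 and 1.44 (median 0.40). In 55 of the 118 genes the TNFa difference was the larger in size. In the same fit 100 of the genes were called lower with TNFa, where 6.32% of all genes were. With BMP4, 103 were called higher, where 6.75% of all genes were. Both effects were called in 88 of the genes. The choice of genes fixes these counts. Genes named below with 1 effect not called include Mef2c, Sox4 and Fbn2 for BMP4, and Lfng, Dlx1, Plxna2 and Foxc2 for TNFa. Just inside the TNFa limit lay Kdm7a at −0.2006 and just outside it Tnfrsf11b at −0.1984. Just inside the BMP4 limit lay Tcta at 0.2016 and just outside it Ank at 0.1997. The lowest mean level taken was 6.002 for Megf6, and the nearest gene left out for its level was Shroom1 at 5.895. The genes lie on 20 chromosomes, with at most 9 on any one.

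**Figure D1:**
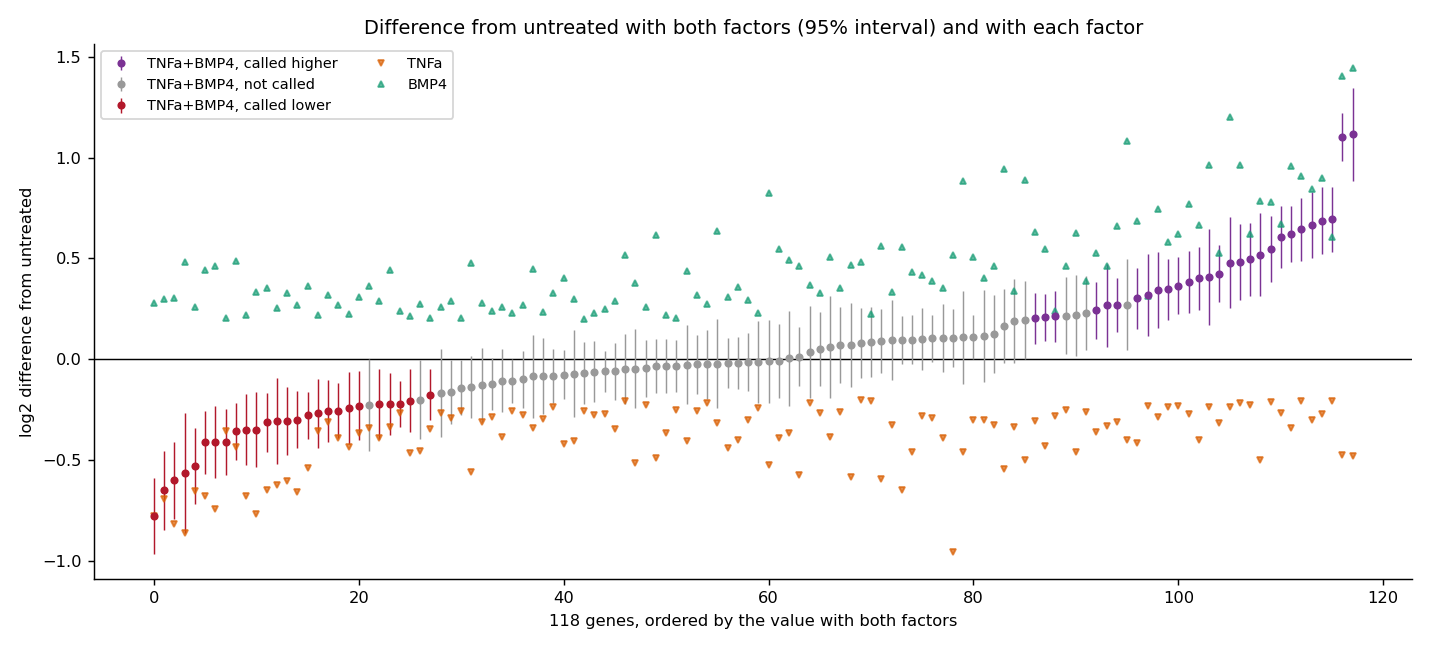
Log2 difference from untreated for each of the 118 genes (y axis), ordered along the x axis by the value with TNFa+BMP4. Circles with vertical 95% intervals are TNFa+BMP4, coloured by call; triangles pointing down are TNFa alone and triangles pointing up BMP4 alone. The circles run from −0.78 to 1.11 through 0, between triangles that the choice of genes keeps apart.

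Per library, the median difference of the 118 genes from the untreated mean of the same batch was −0.0511, 0.0538 and 0.0741 in TNFa+BMP4 replicates 1, 2 and 3. It was −0.410, −0.344 and −0.320 in the TNFa libraries, 0.500, 0.370 and 0.409 in the BMP4 libraries, and −0.0147 and 0.0147 in untreated replicates 2 and 3. In the TNFa+BMP4 libraries 53, 65 and 65 of the genes were above the untreated mean of their batch. By batch the median difference of TNFa+BMP4 from untreated was −0.0511 in batch 1 and 0.0427 in batch 2. Among the 28 higher genes the median was 0.43 in batch 1 and 0.40 in batch 2, and 27 of the 28 were above untreated in both; the exception was Kif26b at −0.05 and 0.64. Among the 26 lower genes it was −0.44 and −0.27, with all 26 below untreated in both batches. The calls were made from these same libraries, so the signs by batch are not a separate check.

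**Figure D2:**
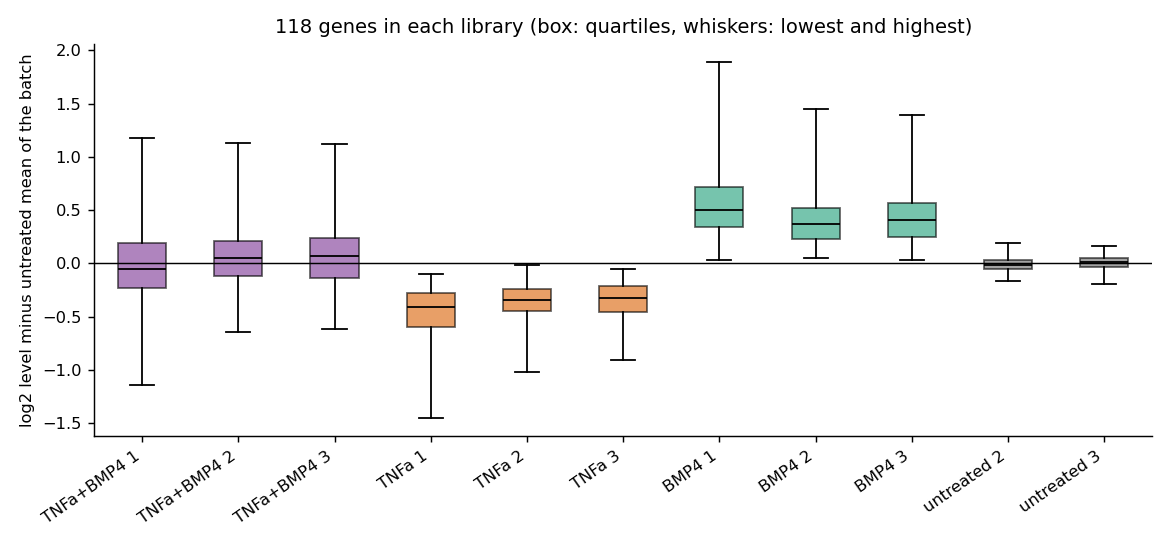
Log2 difference of the 118 genes from the untreated mean of the same batch (y axis), 1 box per library (x axis), by group. Boxes show the quartiles and median, and whiskers the lowest and highest gene; the 3 TNFa+BMP4 medians lie between −0.0511 and 0.0741, below the BMP4 medians and above the TNFa medians.

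TNFa+BMP4 was also set against the midpoint of the TNFa and BMP4 means. In 16 of the 118 genes (13.6%) the level with both factors was above the midpoint, on the BMP4 side, and in 13 (11%) it was below it, on the TNFa side; 89 were not called. The TNFa and BMP4 libraries that form the midpoint also chose the genes, with equal limits for both factors, so these counts are not independent of the choice. If the effects of the factors add, the side follows from which single effect is the larger in size. The genes above had a median TNFa difference of −0.29 and BMP4 difference of 0.72, and those below −0.54 and 0.30. The counts therefore cannot show which factor prevails when both are given, and that was not tested. Over all genes tested, 6.18% were called above and 4.76% below the midpoint, and 6.61% and 5.11% of those with a mean level of at least 6. The median distance from the midpoint was −0.03 for the 118 genes and 0.00129 for all genes. All 29 called genes kept their sign in both batches, whose libraries also made the calls. The mean with both factors lay between the TNFa and BMP4 means in 114 genes. It was above BMP4 in Zfp703 and Klhl26, and below TNFa in Mef2c and Zfp239. The choice of genes holds the TNFa mean below untreated and the BMP4 mean above it, so any level close to untreated lies between them. The count of 114 is therefore not independent of the choice, and no share over all genes was measured for comparison. The midpoint calls rest in part on TNFa+BMP4 replicate 1: without it, 13 of the 29 were lost. Without BMP4 replicate 1, the genes called above the midpoint numbered 25, and a fit with no batch term called 0 above and 1 below by limma (12 and 11 at an unadjusted p under 0.05).

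Of 28 tested genes on a list of BMP-Smad targets and feedback genes, 4 are among the 118, with Id2, Smad9 and Dlx1 described here, and all 4 were higher than untreated and above the midpoint. Id2 (chr12:25093799-25096092, minus strand, mm10) encodes a helix-loop-helix protein that holds other helix-loop-helix factors off DNA. Its level was 9.84, 10.21 and 10.20 with TNFa+BMP4, 8.24, 8.57 and 8.71 with TNFa, 10.14, 10.54 and 10.48 with BMP4, and 8.78, 9.06 and 9.11 in untreated cells. All 3 TNFa+BMP4 libraries were above all untreated and all TNFa libraries and overlapped BMP4 across batches. Id2 was 1.10 ± 0.06 (SE, n = 3 libraries a group) above untreated (adjusted p = 5.4e-12) and 0.64 ± 0.05 above the midpoint (adjusted p = 1.75e-08).

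Smad9 (chr3:54755582-54801269, plus strand, mm10) encodes one of the receptor-regulated Smads that carry the BMP signal. Its level was 8.04, 8.40 and 8.49 with TNFa+BMP4, 6.47, 6.94 and 6.73 with TNFa, 8.75, 8.61 and 8.55 with BMP4, and 6.86, 7.29 and 7.44 in untreated cells. The TNFa+BMP4 libraries overlapped neither the TNFa nor the untreated ones and lay below all BMP4 ones. The difference from untreated was 1.11 ± 0.11 (adjusted p = 1.09e-07) and that from the midpoint 0.63 ± 0.10 (adjusted p = 0.000118).

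Both genes carry the letters GGCGCC, a GC-rich core bound by BMP Smads, in the window from 250 bases before to 50 bases after the RefSeq transcript start. The windows (RefSeq, GRCm38.p6) are shown because these are the genes most raised with both factors, on the gene's strand with GGCGCC in capitals. That of Smad9 is chr3:54755332-54755631 on the plus strand and that of Id2 is chr12:25096043-25096342 on the minus strand.
Smad9: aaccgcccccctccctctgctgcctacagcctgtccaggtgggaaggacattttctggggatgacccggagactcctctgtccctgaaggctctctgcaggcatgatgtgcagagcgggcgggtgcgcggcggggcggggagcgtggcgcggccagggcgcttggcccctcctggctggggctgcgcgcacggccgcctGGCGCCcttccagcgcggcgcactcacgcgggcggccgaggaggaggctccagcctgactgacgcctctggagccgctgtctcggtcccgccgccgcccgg
Id2: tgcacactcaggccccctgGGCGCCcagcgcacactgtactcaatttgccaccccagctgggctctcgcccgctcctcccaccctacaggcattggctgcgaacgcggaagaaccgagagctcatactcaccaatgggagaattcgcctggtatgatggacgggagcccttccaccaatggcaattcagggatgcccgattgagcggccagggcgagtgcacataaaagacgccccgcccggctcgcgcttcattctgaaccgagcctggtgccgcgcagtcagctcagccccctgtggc

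Dlx1, a homeodomain transcription factor, had 8.63, 8.44 and 8.55 with TNFa+BMP4, 7.85, 7.79 and 7.70 with TNFa, 8.97, 8.71 and 8.64 with BMP4, and 8.20, 7.77 and 8.01 in untreated cells. Its TNFa+BMP4 libraries stood above all untreated ones, by 0.55 ± 0.08 (adjusted p = 1.75e-05). It was 0.26 ± 0.07 above the midpoint (adjusted p = 0.0156), a call lost without TNFa+BMP4 replicate 3 (adjusted p = 0.104) and kept in the other 11 fits that left out 1 library.

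Among other regulators of transcription, Zfp703, a zinc finger co-repressor, was the one at or above its BMP4 level. The gene spans chr8:26977336-26981462 on the plus strand (mm10). It had 10.62, 11.11 and 11.05 with TNFa+BMP4, 9.53, 10.20 and 10.35 with TNFa, 10.68, 10.86 and 10.98 with BMP4, and 9.90, 10.32 and 10.49 in untreated cells. The TNFa+BMP4 libraries were above all untreated ones and overlapped BMP4. The difference from untreated was 0.69 ± 0.08 (adjusted p = 6.57e-07) and that from the midpoint 0.49 ± 0.07 (adjusted p = 4.59e-05). Prrx2, a homeodomain factor of mesenchyme, was 0.42 ± 0.07 above untreated (adjusted p = 6.08e-05) and 0.32 ± 0.06 above the midpoint (adjusted p = 0.000965). Tcf7, a nuclear partner of beta-catenin in Wnt signalling, had 8.85, 8.58 and 8.66 with TNFa+BMP4, 8.10, 7.83 and 8.00 with TNFa, 9.29, 8.97 and 8.97 with BMP4, and 8.42, 8.37 and 8.38 in untreated cells. It lay above untreated in every library, by 0.30 ± 0.07 (adjusted p = 0.00309), and its distance of 0.17 from the midpoint was not called (adjusted p = 0.0919).

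Kcnf1, a modulatory subunit of voltage-gated potassium channels, had 8.38, 7.91 and 7.87 with TNFa+BMP4, 7.45, 6.85 and 6.98 with TNFa, 8.50, 8.08 and 8.12 with BMP4, and 7.57, 7.36 and 7.24 in untreated cells. No TNFa+BMP4 library overlapped an untreated one, and the difference was 0.66 ± 0.08 (adjusted p = 1.26e-06), with 0.39 ± 0.07 above the midpoint (adjusted p = 0.000507). Tmem151a, a transmembrane protein, had 9.74, 10.20 and 10.07 with TNFa+BMP4, 8.97, 8.97 and 9.21 with TNFa, 10.23, 10.18 and 10.25 with BMP4, and 9.17, 9.32 and 9.48 in untreated cells. It too stood apart from untreated, by 0.69 ± 0.08 (adjusted p = 9.32e-07), and 0.37 ± 0.07 above the midpoint (adjusted p = 0.000903). Plxna2, a semaphorin receptor, was 0.49 ± 0.09 above untreated (adjusted p = 0.000175). The SH2-domain adaptor Shf was 0.52 ± 0.10 above untreated (adjusted p = 0.000394), and Myo10, a myosin of filopodia, was 0.40 ± 0.08 above (adjusted p = 0.000325). The midpoint calls of Plxna2 (0.30), Shf (0.37) and Myo10 (0.27) were lost without TNFa+BMP4 replicate 1 (adjusted p = 0.223, 0.101 and 0.163).

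Some genes rose above untreated while sitting near the midpoint. Lfng, a glycosyltransferase that modifies Notch, had 9.25, 9.16 and 9.31 with TNFa+BMP4, 8.69, 8.36 and 8.53 with TNFa, 10.47, 9.63 and 9.79 with BMP4, and 9.00, 8.51 and 8.78 in untreated cells. Its levels with both factors were above untreated, by 0.48 ± 0.11 (adjusted p = 0.00196), and below all BMP4 libraries, with no distance from the midpoint (−0.00 ± 0.09). Gja1, the gap junction protein connexin 43, was 0.27 ± 0.06 above untreated (adjusted p = 0.00275) and 0.09 from the midpoint. Fmod, a small leucine-rich proteoglycan, was 0.35 ± 0.07 above untreated (adjusted p = 0.00103), although its level differed between batches far more than between groups, with 10.80, 7.23 and 7.31 with TNFa+BMP4 and 10.52, 6.97 and 6.82 in untreated cells. The other genes called above untreated, listed after their values were seen, were Phldb2, Trabd2b, Arhgef28, Kif26b, Sept5, Dock5, Gp1bb, Klhl26, Prelp, Zfp862-ps, Pxdc1, Tmeff1 and Hip1, with differences from 0.20 to 0.64. Phldb2 (0.64) and Trabd2b (0.62), a membrane protease that inactivates Wnt proteins, were the largest of these. Sept5 and Gp1bb share 83.7% and 92.9% of their exon bases with other genes on the same strand, namely each other and Gm49601. How much the pair alone share was not measured, and they may not be told apart in these counts. Zfp862-ps is a pseudogene whose reads may be split with related genes.

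On the TNFa side, the transcription factor Mef2c had the lowest difference from untreated among the 118 genes on the deposited levels; in the authors' deposited table that of Apln was lower (−1.172, against −1.01 for Mef2c). The gene spans chr13:83524743-83667079 on the plus strand (mm10). Its level was 7.55, 7.86 and 7.89 with TNFa+BMP4, 7.83, 7.67 and 7.80 with TNFa, 8.78, 8.97 and 8.73 with BMP4, and 8.63, 8.50 and 8.50 in untreated cells. The TNFa+BMP4 and TNFa libraries overlapped, and both groups lay wholly below untreated and BMP4. Mef2c was 0.78 ± 0.09 lower than untreated (adjusted p = 1.04e-06), with a difference from the midpoint of −0.53 ± 0.08 (adjusted p = 0.000102).

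Apln (chrX:48025146-48034853, minus strand, mm10) encodes apelin, a secreted peptide that acts on a G protein-coupled receptor. It had 6.00, 6.45 and 6.51 with TNFa+BMP4, 6.22, 6.28 and 6.34 with TNFa, 7.11, 7.28 and 7.43 with BMP4, and 7.00, 6.95 and 6.97 in untreated cells. Again the TNFa+BMP4 libraries overlapped TNFa and none reached untreated. The difference from untreated was −0.65 ± 0.09 (adjusted p = 1.77e-05) and that from the midpoint −0.45 ± 0.08 (adjusted p = 0.000714).

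Of the 5 genes on the list of growth factor receptors and ligands, Fgfr2 and Pdgfrb were called lower than untreated and Fgfr3, Pdgfra and Pdgfc were not called. Fgfr2, a receptor tyrosine kinase for fibroblast growth factors with a known role in skull growth, had 8.49, 7.97 and 7.97 with TNFa+BMP4, 8.36, 7.60 and 7.82 with TNFa, 9.70, 8.72 and 8.73 with BMP4, and 9.42, 8.39 and 8.43 in untreated cells. Within each batch TNFa+BMP4 was below untreated, and across batches the groups overlapped because batch 1 was higher. The difference from untreated was −0.60 ± 0.09 (adjusted p = 3.53e-05), and that from the midpoint −0.34 ± 0.08 (adjusted p = 0.00686), a call lost without TNFa+BMP4 replicate 1 (adjusted p = 0.151) and kept in the other 11 fits. Pdgfrb, a receptor for platelet-derived growth factor, had 11.77, 11.50 and 11.47 with TNFa+BMP4, 11.48, 11.22 and 11.25 with TNFa, 12.54, 11.99 and 12.12 with BMP4, and 12.00, 11.76 and 11.81 in untreated cells. It fell below untreated in each batch, with a difference of −0.28 ± 0.06 (adjusted p = 0.000571). Lgr4, a receptor for R-spondins that strengthens Wnt signalling, differed from untreated by −0.26 ± 0.07 (adjusted p = 0.00498). The midpoint distance was −0.19 for Pdgfrb (adjusted p = 0.0123) and −0.19 for Lgr4 (adjusted p = 0.0305), and without TNFa+BMP4 replicate 1 these had adjusted p = 0.0794 and 0.183. In the 12 fits that left out 1 library, the midpoint call was kept in 10 for Pdgfrb and in 8 for Lgr4, and that of Lgr4 was also lost with no variance trend and with no minimum level.

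The windows of Apln (chrX:48034804-48035103, minus strand) and Fgfr2 (chr7:130266759-130267058, minus strand) are shown as those of genes held low with both factors. Neither holds GGCGCC. Capitals mark CAGAC, a short Smad-binding element searched on both strands (CAGAC or GTCTG), which Apln holds once and Fgfr2, Smad9 and Id2 do not.
Apln: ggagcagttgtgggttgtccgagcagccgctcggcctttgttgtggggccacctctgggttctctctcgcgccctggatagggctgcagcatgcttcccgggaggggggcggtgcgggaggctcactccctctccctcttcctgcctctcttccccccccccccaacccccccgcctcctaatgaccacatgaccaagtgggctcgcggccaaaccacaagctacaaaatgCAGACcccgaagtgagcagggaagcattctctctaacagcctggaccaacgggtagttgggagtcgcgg
Fgfr2: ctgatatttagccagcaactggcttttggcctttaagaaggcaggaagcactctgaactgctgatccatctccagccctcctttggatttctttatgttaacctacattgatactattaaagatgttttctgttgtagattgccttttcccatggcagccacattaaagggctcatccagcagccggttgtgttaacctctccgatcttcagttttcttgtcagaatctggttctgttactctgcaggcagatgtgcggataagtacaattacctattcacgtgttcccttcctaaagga

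A window was matched for 87 of the 118 genes, the one nearest the deposited start. In 82 of these it lay within 10 bases of that start, and the furthest, that of Tiam2, was 70634 bases away. GGCGCC stood in 34.5% of these, in 40.9% of the 22 matched genes higher than untreated with both factors, in 21.1% of the 19 lower ones, in 23% of 8277 genes with a mean level of at least 6 and in 12% of all 27025 windows. CAGAC stood in 51.7% of the matched genes, 50% of the higher ones, 63.2% of the lower ones, 46.5% of the genes with a level of at least 6 and 49.7% of all windows. The E-box CANNTG was in 56.3% of the matched genes against 60.9% of genes with a level of at least 6, and an NF-kB decamer in 17.2% against 9.94%. All motifs were searched on both strands, and matches of different motifs may share bases. For the genes with a level of at least 6 and for all windows, the first listed window of each gene was used instead. The shares thus rest on differently chosen windows. They describe letters in the windows and were not tested.

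Sox9, the transcription factor of the cartilage lineage (chr11:112782210-112787757, plus strand, mm10), had 11.30, 12.09 and 12.17 with TNFa+BMP4, 11.30, 11.56 and 11.70 with TNFa, 12.52, 12.83 and 12.84 with BMP4, and 12.12, 12.28 and 12.40 in untreated cells. TNFa+BMP4 replicate 1 was level with TNFa, whereas replicates 2 and 3 were above TNFa and nearer untreated. The difference from untreated was −0.41 ± 0.09 (adjusted p = 0.000881), with −0.82 in batch 1 and −0.21 in batch 2. The midpoint call (−0.27 ± 0.07, adjusted p = 0.0203) was lost without TNFa+BMP4 replicate 1 (adjusted p = 0.43). It was also lost with no batch term, with no variance trend, with no minimum level and in batch 2 alone. The summed level of the 4 cartilage markers, of which 2 had a mean of at least 4 and Acan was at 0, was 35500 to 44030 with TNFa+BMP4, 19700 to 28220 with TNFa, 34310 to 54830 with BMP4 and 23480 to 28490 in untreated cells, on the linear scale. Nearly all of this sum is Col2a1, which was called higher than untreated with BMP4 and with TNFa+BMP4, while Comp was not called. The part of the sum in the Sox9 result was not tested. Zfp462, a zinc finger protein of chromatin, had 9.59, 9.65 and 9.69 with TNFa+BMP4, 9.59, 9.60 and 9.50 with TNFa, 10.70, 10.35 and 10.40 with BMP4, and 10.04, 10.03 and 9.92 in untreated cells. It was close to TNFa and below untreated in every library, with a difference of −0.36 ± 0.07 (adjusted p = 0.000401), and differed from the midpoint by −0.38 ± 0.06 (adjusted p = 0.000165). Zfp239, a zinc finger protein, was at 6.41, 6.25 and 6.34 with TNFa+BMP4 and 6.75, 6.71 and 6.78 in untreated cells, a difference of −0.41 ± 0.08 (adjusted p = 0.000427).

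Cyp26b1, which degrades retinoic acid, had 10.90, 11.06 and 11.12 with TNFa+BMP4, 10.59, 10.75 and 10.85 with TNFa, 12.55, 11.78 and 11.90 with BMP4, and 12.04, 11.28 and 11.46 in untreated cells. All TNFa+BMP4 libraries were below all untreated ones, with a difference of −0.57 ± 0.14 (adjusted p = 0.00457). The difference was −1.14 in batch 1 and −0.28 in batch 2, and the call was lost without untreated replicate 1 (adjusted p = 0.0628) or without TNFa+BMP4 replicate 1 (adjusted p = 0.0572). Its distance from the midpoint, −0.38 ± 0.12, was not called (adjusted p = 0.0556). Masp1, a serine protease of the lectin pathway of complement, had 10.17, 9.86 and 9.87 with TNFa+BMP4, 9.85, 9.91 and 9.78 with TNFa, 11.22, 10.52 and 10.54 with BMP4, and 10.81, 10.30 and 10.39 in untreated cells. Its levels with both factors overlapped TNFa and were below untreated, with a difference of −0.53 ± 0.09 (adjusted p = 0.000126). The midpoint distance of −0.33 ± 0.08 (adjusted p = 0.00741) was not called without TNFa+BMP4 replicate 1 (adjusted p = 0.06). Others of the 26 lower genes, listed after their values were seen, included Rps6ka5, Tmem119, Dact3, Wwp2, Amacr, Sesn3, St3gal5, Mid2, Rpgrip1l, Zfp385a, 4930402H24Rik, Glcci1, Pik3r3, Pde4dip and Btbd3, between −0.41 and −0.18. Rps6ka5, the kinase MSK1, was the lowest of them (−0.41 ± 0.08, adjusted p = 0.000243). Glcci1 shares 72.4% of its exon bases with other genes and Sox4 54.6%, and the strand setting of the counting is not given in the sources used here.

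**Figure D3:**
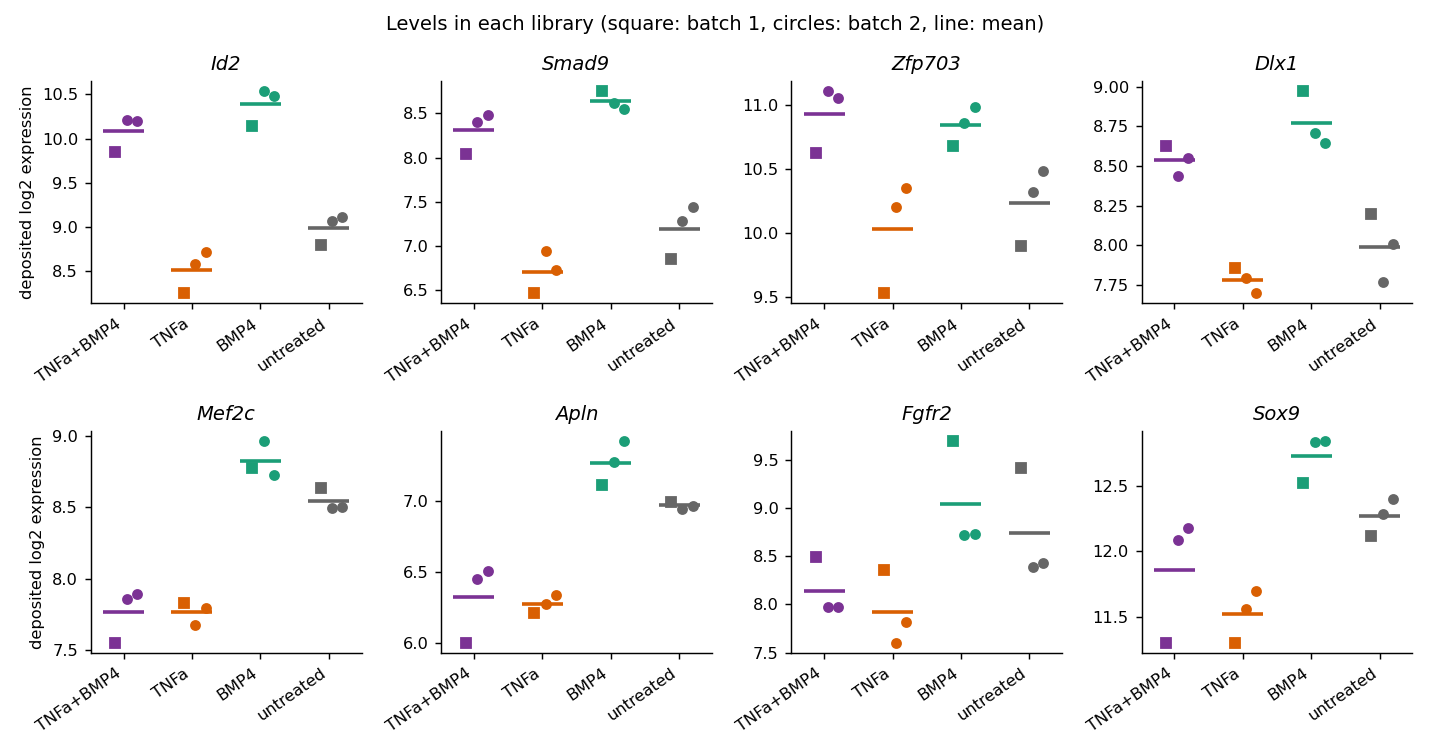
Deposited log2 level of 8 of the genes (y axis) in each library (points), by group (x axis), with the horizontal bar at the mean of 3 libraries and the marker shape giving the batch. Smad9 and Id2 lie well above untreated with TNFa+BMP4 (differences of 1.11 and 1.10), and Mef2c and Apln lie below it (−0.78 and −0.65).

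The genes called higher and lower with both factors also differed in the values that chose them. The 28 higher genes had a median BMP4 difference of 0.68 and a median TNFa difference of −0.28; the 26 lower genes had 0.30 and −0.57. The 64 genes not called had 0.37 and −0.33, with a median of −0.02 for both factors together. If the effects of the factors add, the sign with both factors follows from the larger single effect. All of these differences share the untreated libraries, so they are given side by side without a test.

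In the 64 genes that were not called, the interval bounds how far the level with both factors could lie from untreated. The 95% interval stayed within ±0.2 in 13 of them, and its half-width over all 118 genes had a median of 0.165. Has2, the synthase of hyaluronan, had 10.03, 9.85 and 9.98 with TNFa+BMP4, 9.76, 9.37 and 9.37 with TNFa, 10.67, 10.62 and 10.52 with BMP4, and 10.16, 9.93 and 9.87 in untreated cells. The TNFa+BMP4 and untreated libraries overlapped, and the difference was −0.03 (95% interval −0.17 to 0.10). Hr, a nuclear corepressor, had 9.77, 11.14 and 11.14 with TNFa+BMP4, 9.08, 10.40 and 10.34 with TNFa, 10.37, 11.51 and 11.54 with BMP4, and 9.82, 10.90 and 11.05 in untreated cells. It differed between batches by more than between groups, and its difference with both factors was 0.10 (−0.02 to 0.21).

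The Wnt receptor Fzd9 differed from untreated by −0.01 (95% interval −0.22 to 0.19), with −0.35 in batch 1 and 0.16 in batch 2, so its sign depended on the batch. Gas1, a hedgehog co-receptor, stood at 0.10 (−0.06 to 0.27). Nabp1, which binds single-stranded DNA, stood at 0.09 (−0.07 to 0.25). These 3 genes had TNFa differences of −0.53, −0.39 and −0.59 and BMP4 differences of 0.82, 0.35 and 0.56. Of the platelet-derived growth factor genes, the receptor Pdgfra stood at −0.03 (−0.17 to 0.10) and the ligand Pdgfc at 0.19 (−0.02 to 0.40). The matrix genes Postn, encoding periostin, and Fbn2, encoding fibrillin-2, were at −0.03 and −0.08. The transcription factors Trps1, Sox4 and Foxc2 were at −0.03, −0.20 and 0.22, and the guidance ligand Efnb2 at 0.09. Fibin and Wscd2, with BMP4 differences of 0.94 and 0.89, were at 0.17 and 0.20.

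Fgfr3, another receptor for fibroblast growth factors, had 6.79, 7.23 and 7.05 with TNFa+BMP4, 6.38, 6.31 and 6.36 with TNFa, 8.08, 7.64 and 7.79 with BMP4, and 6.74, 6.75 and 6.78 in untreated cells. Every TNFa+BMP4 library was above every untreated one, but the difference of 0.27 ± 0.11 missed the threshold (adjusted p = 0.0648). Fgfr2 and Fgfr3 thus had values of opposite sign with both factors, of which that of Fgfr2 was called; the difference between the genes was not tested.

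Whether the effects of the factors added up on the log2 scale was tested as an interaction, TNFa+BMP4 minus TNFa, minus BMP4, plus untreated. The TNFa, BMP4 and untreated libraries in this contrast also chose the genes, so its values and counts are not independent of the choice. None of the 118 genes was called by limma, and 0.017% of all genes were called. At an unadjusted p under 0.05 there were 18 of the 118 genes and 560 of all 11765 genes tested. The interaction had a median of −0.03 over the 118 genes, with 44 positive and 74 negative values between −0.49 and 0.55. Its 95% interval, which is not adjusted for the number of genes, had a median half-width of 0.233. Calls used the adjusted p, so interactions larger than that may also have gone uncalled. The highest value was that of Tafa5, which encodes a small secreted protein: 0.55 ± 0.10 (adjusted p = 0.0609, range 0.0218 to 1 over the alternative fits). Tafa5 had 8.59, 8.43 and 8.40 with TNFa+BMP4, 7.51, 7.30 and 7.41 with TNFa, 9.07, 8.81 and 8.76 with BMP4, and 8.46, 8.37 and 8.27 in untreated cells. TNFa alone was far below every other group, while TNFa+BMP4 overlapped untreated. Its difference from untreated was 0.11 (95% interval −0.04 to 0.25), and from the midpoint 0.33 ± 0.06 (adjusted p = 0.000811).

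Pathway lists that hold some of the 118 genes were counted over all their tested genes, for TNFa+BMP4 against untreated, where 16.8% of all genes tested were called higher and 14.4% lower. Of the 28 BMP-Smad targets and feedback genes, 19 were higher than untreated and 2 lower, with a median of 0.62. Of 25 Wnt regulators, which include Lgr4 and Tcf7, 4 were higher and 15 lower (median −0.23). Of 46 skeletal transcription factors, with Mef2c, Sox9, Sox4, Foxc2, Tcf7 and Trps1, 10 were higher and 13 lower. Of 33 growth factor receptors and ligands, with Fgfr2, Fgfr3, Pdgfra, Pdgfrb and Pdgfc, 12 were higher and 13 lower. Of 12 retinoid genes, with Cyp26b1, 5 were lower. Of 44 matrix genes, with Fbn2, Postn, Fmod and Has2, 13 were higher and 10 lower. The counts were 9 and 6 of 30 guidance genes (Plxna2, Efnb2), 4 and 4 of 17 Notch and hedgehog genes (Lfng, Gas1), 15 and 11 of 46 adhesion and actin genes (Myo10), and 5 and 12 of 28 cell cycle genes (Gas1). None of the 118 genes was on the other lists: 13 of 17 NF-kB genes were higher, and 13 and 5 of 31 apoptosis genes, 8 and 2 of 24 BMP and TGF-beta components, and 13 and 7 of 35 signalling scaffold genes were higher and lower. The lists were chosen with earlier results of these data known and overlap in a few genes.

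The opposite set, taken by the same limits with the signs turned round (raised by TNFa, lowered by BMP4), holds 106 genes. The 118 genes had 28 higher and 26 lower than untreated with both factors, while of the 106 genes 59 were higher and 6 lower; over all genes tested 16.8% were higher and 14.4% lower. Against the midpoint, 16 of the 118 lay on the BMP4 side and 13 on the TNFa side, while of the 106 genes 42 lay on the TNFa side, above the midpoint, and 4 on the BMP4 side, below it, where 6.18% and 4.76% of all genes lay above and below. The median distance from the midpoint was −0.03 in the 118 genes and 0.15 in the 106. The TNFa effects of the opposite set were also larger in size, with a median of 0.47 against a median BMP4 effect of −0.30. If the effects of the factors add, a gene with the larger TNFa effect lies on the TNFa side for that reason alone. The difference between the sets was not tested.

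**Figure D4:**
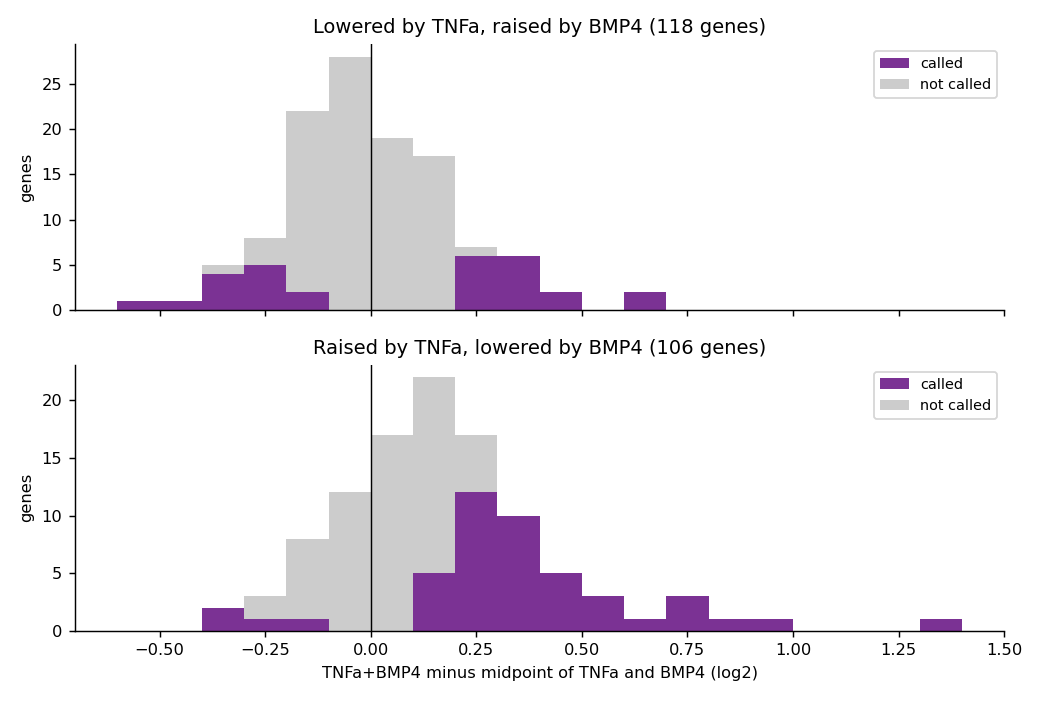
Number of genes (y axis) by log2 distance of TNFa+BMP4 from the midpoint of TNFa and BMP4 (x axis), for the 118 genes in the upper panel and the 106 genes of the opposite set in the lower one, with called genes shaded. The upper panel centres on −0.03 and the lower on 0.15.

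In the authors' deposited table, 26 of the 118 genes were called higher and 18 lower with both factors than untreated, where 5.69% and 4.4% of the table were. That table includes 7423 genes at 0 throughout, whereas the 118 genes all have a mean level of at least 6. The shares are therefore not like for like. The authors' deposited table gives log2 fold changes against untreated of 1.258 for Id2, 1.52 for Smad9, −1.01 for Mef2c, −1.172 for Apln and −0.7505 for Fgfr2, all called there. In the authors' deposited table, Sox9 (−0.4399, adjusted p = 0.0766) and Cyp26b1 (−0.609, adjusted p = 0.0822) were not called.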

How the data were processed

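Per the labels, polyA RNA from MC3T3-E1 cells was sequenced as 150 bp paired-end reads. Trim Galore, HISAT2, HOMER and the mm10 build are listed in the submitters' processing notes, with no versions. Exonic reads were counted by HOMER for 1 transcript per gene, and group differences were tested with batch in the model, per the file headers. The deposited values used here are log2 levels; how they were transformed is not given in the sources used here. Fold changes (log2) and adjusted p-values computed by the authors are deposited beside them and are quoted only where so named. Differences of the deposited levels are smaller than the authors' fold changes at low levels, with a slope of 0.56 at a mean log2 of 6 to 8, 0.81 at 8 to 10 and 0.92 above 10. Batch numbers follow the labels; the header swaps them.

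The levels of 11765 genes with a mean log2 of at least 4 were modelled in limma 3.58.1 (R 4.3.3) with the 4 groups, an additive batch term and a variance trend (7 residual degrees of freedom). Contrasts were tested two-sided with Benjamini-Hochberg adjustment over all genes, and called under 0.05. TNFa+BMP4 was set against untreated and against the midpoint, and the interaction was tested, 3 contrasts in all. Differences are given with their standard error, and n is 3 libraries a group. The script was tested on simulated data.

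No libraries were identical (highest correlation 0.9986). Replicate numbers were not used to pair the libraries beyond batch in the main fit. Correlations of same-numbered deviations within batch 2 ran from 0.0199 to 0.164. This check used batch 2 alone and does not settle whether same-numbered libraries were paired. The genes, lists and tests were chosen with earlier results of these data known. Genes were named by size and call in each contrast and by membership of the 14 lists; other called genes are named as the remainder of their group, and some items are not reported here. Alternatives covered normalization, filters, batch, replicate block and each library left out.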

Additional observations from a re-analysis of the deposited data

How the results depend on the processing

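The results most dependent on the processing were the counts of genes called against the midpoint. No called difference of a gene named by the rule changed sign in any alternative fit. Without a batch term, 8 of the 118 genes were called higher and 5 lower than untreated with both factors, and 0 above and 1 below the midpoint by limma (12 and 11 at an unadjusted p under 0.05). With effects of at least 0.3 as the limit, 56 genes remained, of which 12 were higher and 13 lower than untreated, and 7 above and 8 below the midpoint. In batch 2 alone, 25 genes were above the midpoint and 1 interaction was called, that of Tafa5. The Tafa5 interaction was also the 1 called with no variance trend, with a minimum level of 6 and without BMP4 replicate 1. Leaving out each library in turn gave 25 to 31 genes higher and 18 to 26 lower than untreated, 13 to 25 above the midpoint (25 without BMP4 replicate 1), 6 to 17 below it (6 without TNFa+BMP4 replicate 1), and 0 to 1 interactions. In all 12 such fits, 22 of the 28 higher genes, 15 of the 26 lower, 10 of the 16 above and 4 of the 13 below the midpoint kept their call. With a replicate block in place of batch, 27 were higher, 25 lower, 15 above and 14 below the midpoint, and 0 interactions were called by limma (smallest adjusted p = 0.117, with 6 positive and 10 negative at an unadjusted p under 0.05). Beside these, 120 other counts stayed within 1.5 times their value. They include interaction counts of 0 set against 0, which say little about stability. Depth was known only as tags per library, and 3 libraries a group limit what the intervals can show.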

Other observations

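The 12 genes that met the same values but were left out by name included the classic BMP targets. With both factors 8 were higher than untreated and 1 lower. Atoh8, a basic helix-loop-helix factor, was 1.72 ± 0.17 above untreated, Id3 1.60 ± 0.07, Id1 1.42 ± 0.08 and the inhibitory Smad gene Smad6 1.19 ± 0.10 (SE, n = 3 libraries a group). The transporters Slc6a8 and Slc6a6 were 0.32 and 0.19 above, Trim59 0.30 and Slc35e3 0.29. Rflnb was lower, with a difference of −0.39 ± 0.12. Wnt4 (−0.01), the parathyroid hormone receptor gene Pth1r (−0.04) and the sulfate transporter gene Slc26a2 (−0.24) were not called.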
